A study of Mus musculus with 12 samples.

Results

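Untreated oligodendrocyte precursor cells (OPCs) in culture were profiled by RNA-seq in 4 libraries, the Ctr libraries of a series of 12. The other libraries came from sister cultures that received 1 µM dexamethasone, a synthetic glucocorticoid (Dexa, 4 libraries), or 100 ng/ml interferon-gamma (IFNg, 4 libraries) for 48 h. All 4 libraries labelled Ctr are described, and they are called Ctr 1 to Ctr 4 by their replicate number. The OPCs came from dissociated brains of pups aged postnatal day 4 to 6, with several brains pooled per experiment and, by the study's methods, a different litter behind each replicate. Every library is labelled as Sox10GFP+ OPCs, while the protocol in the labels names sorting for Sox10GFP or magnetic beads against CD140a, the PDGFRA protein, without assigning either to a library. Cells grew in a proliferation medium with PDGF-AA at 10 ng/ml and bFGF at 20 ng/ml by the labels, which all 3 groups shared, while the study's methods give other doses of both factors. The GFP line drives Cre from Sox10, which is active in the whole oligodendrocyte lineage and in neural crest derivatives. The labels also name EAE as the mouse model on every library, although the cells were taken from pups.

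OPCs are the dividing progenitors of oligodendrocytes, the myelin-forming glia of the brain. PDGFRA, NG2 (encoded by Cspg4) and the transcription factors OLIG2 and SOX10 define them, and PDGF-AA with bFGF keeps them dividing in culture. On leaving the cell cycle they pass through a committed precursor stage marked by GPR17 and BMP4 and then switch on myelin genes such as Mbp and Mog. Dexamethasone acts on the cytoplasmic glucocorticoid receptor NR3C1, which is held by HSP90 chaperones. Interferon-gamma binds IFNGR1 and IFNGR2 and signals through the kinases JAK1 and JAK2. The expression of these receptors before any treatment was therefore of interest.

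The Ctr libraries held 37066224, 52074652, 46949999 and 30945962 estimated read counts. Levels are given in TPM, a per-length unit of transcript abundance, as the sum over the transcripts of a gene, so they can be compared between genes. Of 55536 genes, 11422 reached 1 TPM in all 4 libraries, and 10475 of these were protein-coding. A further 4424 of 22028 protein-coding genes had no read in any Ctr library. A count of 0 allows up to 3 counts per library, or 0.0576 to 0.0969 CPM (counts scaled to the library total) at these depths, and this floor covers counting error only. No exact paired test over 4 libraries can go below p = 0.13, so levels are given without tests, and the order of genes is given with whether their 4 values overlapped. Where replicates are compared with each other, the test used the treated libraries as well and is described there.

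Small structural RNAs took most of the TPM scale. Rn7s1 and Rn7s2, copies of the 7SL RNA of the signal recognition particle, together took 53.3%, 50.6%, 54.3% and 53.7% of all TPM in Ctr 1 to Ctr 4, while they took 9.84%, 8.38%, 9.02% and 9.36% of the reads. Rn7sk, the 7SK RNA that holds the elongation factor P-TEFb inactive, added 9.0% to 11.9% of TPM and 2.09% to 2.59% of reads. A short transcript weighs more in a per-length unit than in reads. Protein-coding genes kept 26.8% to 30.7% of TPM against 81.2% to 83.9% of reads. Each TPM below would be 3.26 to 3.74 times higher if it were computed over protein-coding genes alone, with the order of genes within a library unchanged.

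The split between the 7SL copies is not a measurement of each locus. The annotated transcripts of Rn7s1 and Rn7s2 are identical in sequence, with 0 differences. The files give Rn7s1 401710, 373200, 400340 and 396840 TPM and Rn7s2 131240, 133130, 142890 and 140620 TPM in Ctr 1 to Ctr 4. Reads of either copy cannot be told apart by sequence, and only the sum of both is used here.

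Other abundant non-coding RNAs differed more between replicates. Rpph1, the RNA component of RNase P, stood at 22161 and 21061 TPM in Ctr 1 and Ctr 2 and at 8791 and 13758 TPM in Ctr 3 and Ctr 4. The mitochondrial 16S rRNA mt-Rnr2 went the other way, with 4919, 6172, 8892 and 10509 TPM. The libraries were depleted of rRNA, so the level of mt-Rnr2 need not follow its abundance in the cells. Malat1, a nuclear long non-coding RNA, took 0.609% ± 0.0972 of reads (SD, n = 4), the highest share of the long non-coding RNAs.

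Among protein-coding genes, translation, mitochondrial respiration and the cytoskeleton led the ranking. Eef1a1, the translation elongation factor, was first at 4029 ± 371 TPM (SD, n = 4), followed by mt-Co1, a cytochrome c oxidase subunit, at 3889 ± 885 TPM and the actin gene Actb at 2495 ± 508 TPM. Fabp7, a brain fatty acid-binding protein of radial glia and OPCs, came next with 2826, 2650, 1801 and 1745 TPM in Ctr 1 to Ctr 4. Ckb, brain creatine kinase, had the widest spread relative to its mean of the first 15 genes, from 2064 and 1357 TPM in Ctr 1 and Ctr 2 to 559 and 689 TPM in Ctr 3 and Ctr 4. Among the rest of the first 15 were mt-Atp8, mt-Co2, mt-Co3, mt-Cytb, Tuba1a, Rpl41, Rps12-ps3, Rps29 and Rpl13a, with means of at most 1972 TPM. Rps12-ps3 is annotated as protein-coding but bears the name of a pseudogene of Rps12, so its reads may be shared with a near-identical copy. The 10 highest protein-coding genes of a library held 7.07% to 8.44% of its protein-coding TPM. At 100 TPM or more in all 4 libraries stood 292 protein-coding genes.

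**Figure D1:**
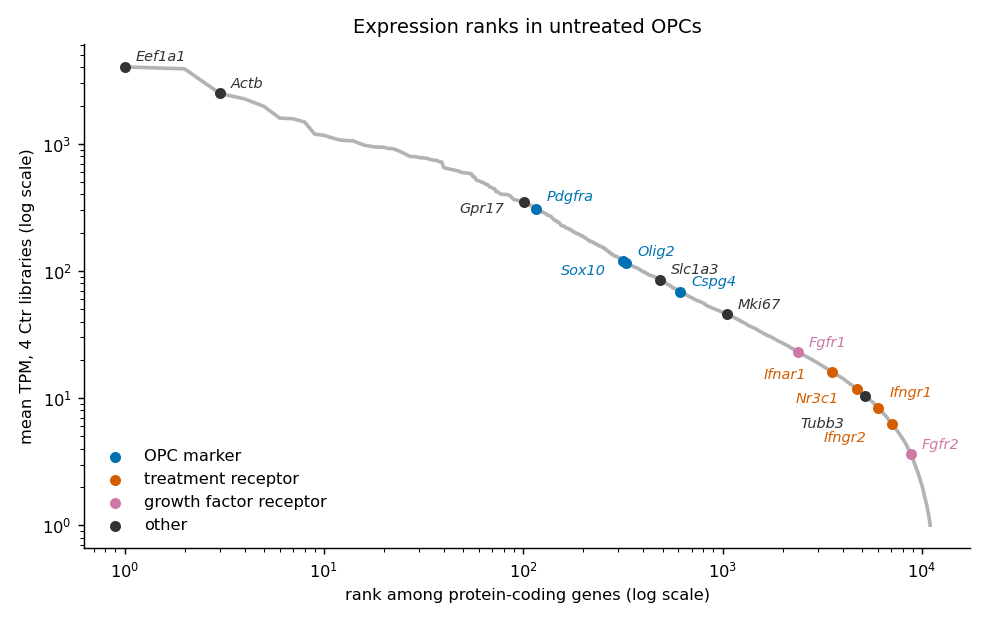
Mean TPM over the 4 Ctr libraries of every protein-coding gene at 1 TPM or more (grey line), against its rank, both axes logarithmic, with named genes as points. Pdgfra lies at rank 116 and Nr3c1 at rank 4722, so the receptor for PDGF-AA sits far above the receptors for both treatments.

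All markers that define OPCs were expressed in all 4 libraries. Pdgfra, the PDGF-AA receptor, measured 156, 372, 420 and 292 TPM in Ctr 1 to Ctr 4 (310 ± 116, SD, n = 4) and ranked 116 among protein-coding genes. Sox10 measured 40.8, 129, 157 and 154 TPM (rank 315), and Olig2 89.1, 118, 134 and 120 TPM (rank 329). Cspg4, encoding the NG2 proteoglycan, measured 39.7, 78.6, 91.8 and 65.1 TPM (rank 613). Ctr 1 was the lowest library for each of these genes. Pdgfra was above Sox10, and Olig2 above Cspg4, within each of the 4 libraries, although the ranges of neighbours overlapped. In bulk RNA a lower level can come from fewer cells of a type or from less RNA per cell, and the data cannot tell these apart.

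The wider OPC list followed the same order. It held 12 genes, 11 of which were at 1 TPM or more in every Ctr library, and its summed level was 587, 1108, 1306 and 1041 TPM in Ctr 1 to Ctr 4. After Pdgfra came Ptprz1, a receptor phosphatase, at 166 ± 21.5 TPM and Cspg5, a neural chondroitin sulfate proteoglycan, at 152 ± 20.1 TPM. Tnr, the matrix protein tenascin-R, ranged from 15.5 TPM in Ctr 1 to 104 TPM in Ctr 3. Matn4, matrilin 4, was at 2.57, 35.2, 41.7 and 13.6 TPM. Of the 12 genes, 11 had their lowest value in Ctr 1, which held the lowest value for 51.3% of all genes at a mean of 1 TPM or more. Susd5 alone was below 1 TPM, at 0.249 ± 0.151 TPM.

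Lineage transcription factors were expressed in full. All 8 listed genes exceeded 1 TPM in every library, with sums of 564, 840, 920 and 846 TPM. Olig1 was the highest at 286, 371, 323 and 281 TPM, and unlike its neighbour Olig2 it was not lowest in Ctr 1. The SOXE factor Sox8 measured 70.2, 90.2, 128 and 135 TPM. Sox6 and Sox5, SOXD factors that hold OPCs back from differentiation, stood at 93.3 ± 35.3 and 15.9 ± 2.73 TPM. Nkx2-2 measured 7.16, 13.8, 15.7 and 18.8 TPM.

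Genes of committed precursors and newly formed oligodendrocytes were present at levels that depended strongly on the replicate. Their sum over 12 genes was 227, 552, 1046 and 1164 TPM in Ctr 1 to Ctr 4. Gpr17, the receptor that marks committed precursors, measured 51.0, 236, 539 and 572 TPM, and in Ctr 3 and Ctr 4 it exceeded Pdgfra. Bcas1, a marker of early myelinating cells, measured 28.2, 109, 238 and 304 TPM. Bmp4 rested on 8, 152, 316 and 630 counts, or 0.0664, 1.74, 5.60 and 11.9 TPM. Enpp6, an early marker of differentiating oligodendrocytes, measured 0.143, 1.44, 5.20 and 11.4 TPM. For Bmp4 and Enpp6 the values of Ctr 1 and Ctr 2 lay below those of Ctr 3 and Ctr 4. Myrf, the transcription factor needed for myelin gene expression, stood at 0.470, 2.09, 4.72 and 6.05 TPM. Cemip2 had the opposite order, with 8.84, 8.12, 5.63 and 3.71 TPM, and Nkx6-2 was also highest in Ctr 1, with 0.452, 0.135, 0.0708 and 0.177 TPM.

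Myelin genes were limited to those that start early. Cnp, a phosphodiesterase of early myelin, measured 49.1, 106, 159 and 178 TPM, and Ugt8a, which makes galactosylceramide, 8.36, 20.0, 25.2 and 23.96 TPM. Mbp, myelin basic protein, was highest in Ctr 2 at 18.8 TPM, against 4.30, 7.84 and 10.2 TPM in Ctr 1, Ctr 3 and Ctr 4. Late genes were close to the floor. Mog had 10, 7, 11 and 8 counts, Opalin 4, 0, 0 and 1, Ermn 5, 13, 1 and 0, and Mal 2, 3, 3 and 16 counts. Mobp had 12, 20, 3 and 1 counts.

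Transcript estimates of Mbp were looked at after its gene values were known. Of 16 Mbp transcripts, 4 start at the upstream promoter of the golli isoforms. They took 18.0% and 18.3% of Mbp TPM in Ctr 1 and Ctr 2 and 57.2% and 57.2% in Ctr 3 and Ctr 4. The downstream starts carried 15.4 TPM in Ctr 2, against 3.52, 3.36 and 4.36 TPM in Ctr 1, Ctr 3 and Ctr 4. These values are apportioned by the quantifier among overlapping transcripts and carry its error as well.

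Cell cycle genes were expressed in every library. All 12 cell cycle genes were at 1 TPM or more throughout, with sums of 901, 794, 410 and 322 TPM in Ctr 1 to Ctr 4. Top2a, the DNA topoisomerase of dividing cells, measured 142, 128, 80.3 and 52.4 TPM. Pcna, the replication clamp, measured 128, 109, 42.7 and 46.7 TPM, and Cdk1, the mitotic kinase, 119, 98.1, 51.6 and 42.5 TPM. Mki67, the proliferation antigen, measured 59.7, 56.5, 40.1 and 25.6 TPM. In all 12 genes Ctr 1 was highest and both Ctr 1 and Ctr 2 lay above Ctr 3 and Ctr 4. Over all 12277 genes with a mean of at least 1 TPM, 30.9% had that order and 25.3% had the reverse.

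**Figure D2:**
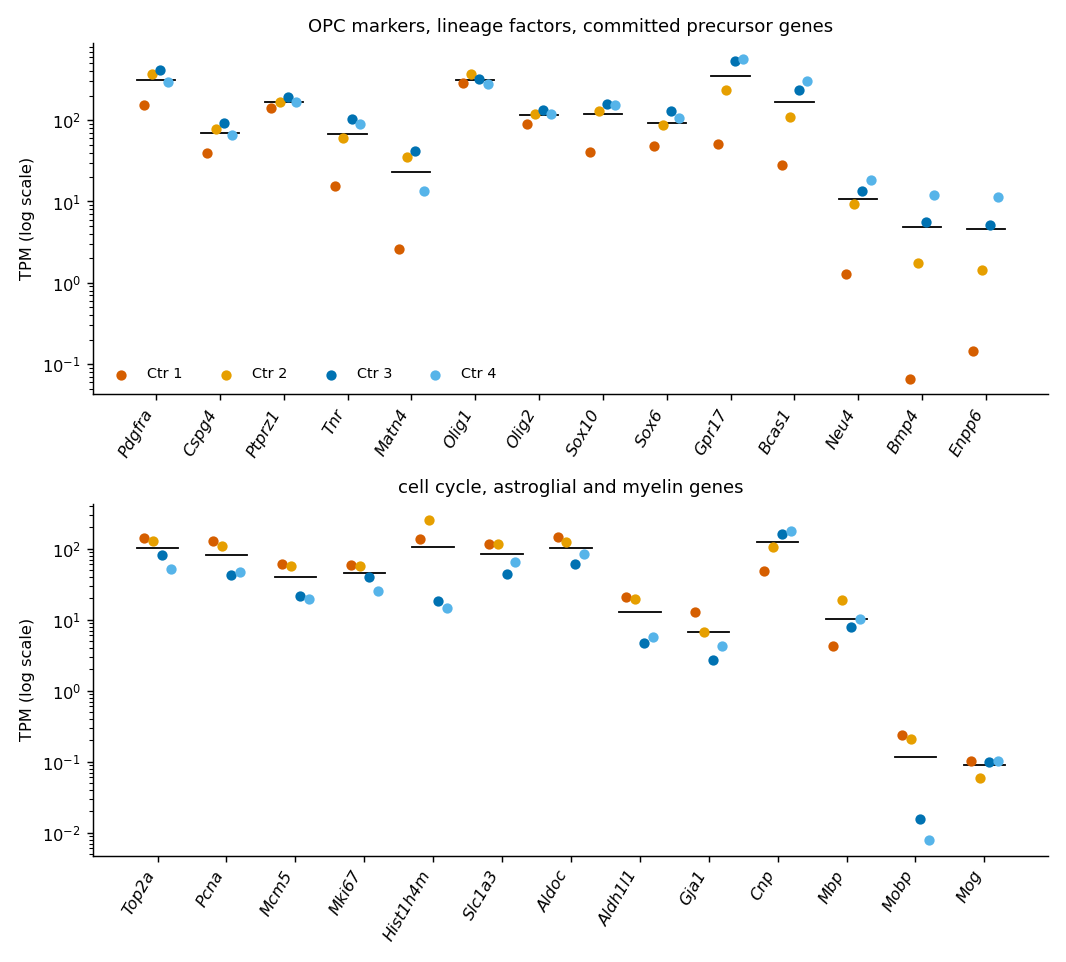
TPM on a logarithmic axis in each Ctr library (coloured points, Ctr 1 to Ctr 4) for OPC, lineage and committed precursor genes (top) and cell cycle, astroglial and myelin genes (bottom), with the mean as a bar. Gpr17 climbs from 51.0 TPM in Ctr 1 to 572 TPM in Ctr 4, while Mcm5 falls from 61.1 to 19.5 TPM.

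Marker lists of other cell types were far below the OPC list, with the exception of astroglial genes. Microglia and macrophage genes summed to 0.825 to 1.53 TPM over 14 genes, none of which had a mean of 1 TPM. Cd68 made up most of it at 0.799 ± 0.238 TPM, and 7 of the 14 had at most 3 counts in each library. The microglial receptor Cx3cr1 had 0, 1, 0 and 0 counts and C1qb 0, 1, 0 and 0. P2ry12, also microglial, had 10, 33, 31 and 17 counts. Endothelial genes summed to 0.618 to 0.765 TPM over 8 genes, with Flt1 the highest at 0.230 ± 0.0698 TPM, followed by Kdr and Pecam1. Mural genes summed to 1.73 to 2.79 TPM, led by Acta2, Tagln and Vtn. Ependymal genes summed to 0.802 to 3.07 TPM over 4 genes, nearly all from Foxj1 at 2.92, 1.69, 0.653 and 1.04 TPM.

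Fibroblast genes were low but varied more than any other list. Their sum over 8 genes was 0.135, 1.99, 3.97 and 0.858 TPM in Ctr 1 to Ctr 4. Col3a1, a fibrillar collagen, had 4, 220, 355 and 19 counts and Col1a2 3, 138, 179 and 14. Col6a3, a collagen of the connective tissue, had 6, 136, 384 and 128 counts. Ctr 1 and Ctr 4 were low and Ctr 2 and Ctr 3 high for the fibrillar collagens. The summed OPC list shared only the rank order of libraries, since its Ctr 4 at 1041 TPM lay close to Ctr 2 at 1108 TPM.

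Neuronal genes summed to 17.7, 25.04, 29.5 and 30.4 TPM over 12 genes. Most of it came from Tubb3 at 10.4 ± 0.520 TPM, Dcx at 2.05, 6.35, 11.2 and 10.1 TPM, and Snap25 at 3.01 ± 0.959 TPM, of which Dcx encodes the microtubule protein doublecortin. Genes of mature transmitter neurons were low and unequal. The glutamate transporter genes Slc17a7 and Slc17a6 had 1, 7, 6 and 2 and 0, 2, 0 and 0 counts, near the floor. Of the GABA-synthesizing enzymes, Gad2 had 3, 6, 2 and 1 counts and Gad1 26, 67, 65 and 49, and the synaptic gene Syt1 stood above these at 0.894 ± 0.159 TPM. Schwann cell and neural crest genes, relevant to a Sox10 reporter, summed to 5.67 to 9.44 TPM over 8 genes, led by Pou3f1, Cdh19 and Mitf. Foxd3, a neural crest transcription factor, had 0 counts in all 4 libraries.

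Astroglial genes stood higher. Aldoc, aldolase C, measured 144, 125, 61.5 and 82.9 TPM, and Slc1a3, the glutamate transporter GLAST, 117, 116, 43.6 and 65.2 TPM. Aldh1l1, a folate enzyme used as an astrocyte marker, measured 21.1, 19.4, 4.72 and 5.65 TPM, and Gja1, connexin 43, 12.9, 6.60, 2.70 and 4.27 TPM. Slc1a2 measured 11.5, 11.0, 5.34 and 6.60 TPM and Aqp4 6.49, 4.50, 1.25 and 3.63 TPM in Ctr 1 to Ctr 4. The sum over 8 genes was 313, 283, 119 and 168 TPM. Gfap, the defining intermediate filament of astrocytes, had 22, 65, 6 and 15 counts (0.0329 to 0.327 TPM), and Gjb6, connexin 30, had none in any library. The oligodendrocyte lineage itself can express Slc1a3, and the part of other glia in these values was not tested.

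**Figure D3:**
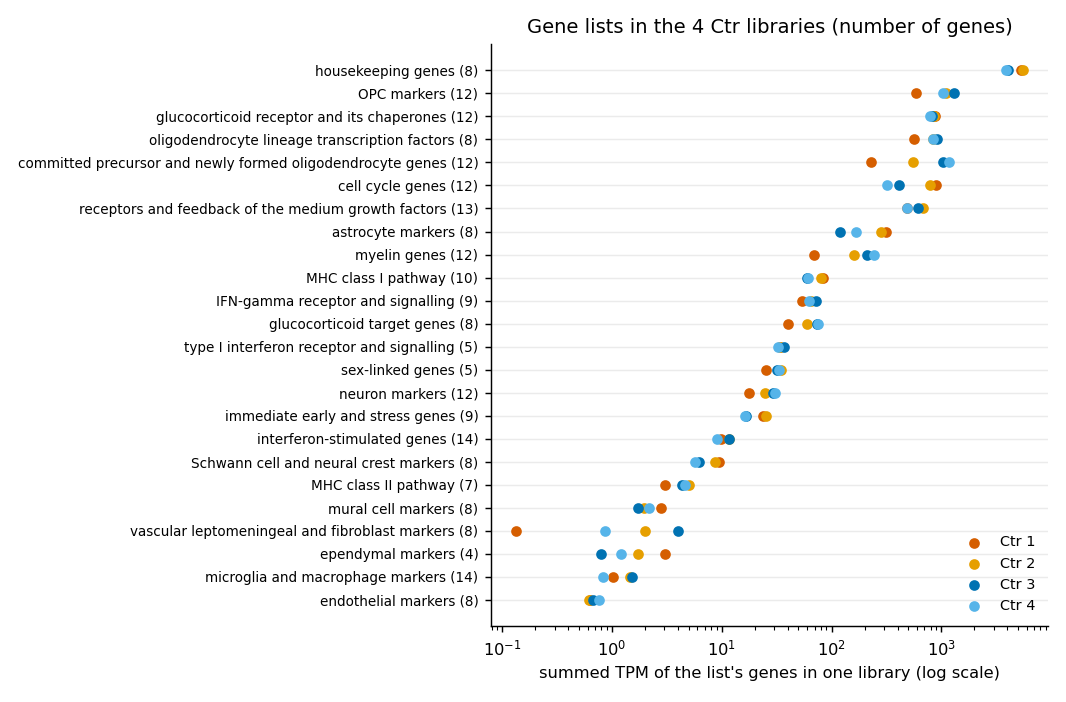
Summed TPM of each gene list in each Ctr library (coloured points) on a logarithmic axis, with the number of genes in brackets. The OPC list lies between 587 and 1306 TPM, while microglial and endothelial lists stay below 1.53 TPM.

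The receptors of interferon-gamma were expressed at moderate levels before treatment. Ifngr1, the ligand-binding chain, measured 7.47, 8.64, 9.66 and 7.76 TPM in Ctr 1 to Ctr 4 (rank 6040). Ifngr2, the second chain, measured 4.61, 6.77, 6.79 and 6.73 TPM (rank 7093), with Ctr 1 below the others. The transcript Ifngr2-202, annotated as a target of nonsense-mediated decay, took 52.8% ± 2.72 of Ifngr2 TPM, so the coding transcript Ifngr2-201 alone stood at 2.93 ± 0.469 TPM. Ifngr1-201, the coding transcript of the other chain, took 90.9% ± 4.74 of its gene.

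The kinases downstream were present too. Jak2 measured 11.3, 14.7, 19.01 and 15.1 TPM and Jak1 11.3 ± 0.777 TPM. Jak2 was above Jak1 in 4 of 4 libraries, though their ranges overlapped. Irf1, an early target of the pathway, stood at 4.10 ± 0.559 TPM. Ptpn2, a phosphatase that dephosphorylates JAKs, stood at 7.64 ± 0.527 TPM. Of the feedback inhibitors, Socs3 measured 2.69 ± 0.389 TPM and Socs1 only 0.137 ± 0.00886 TPM, on 17 to 29 counts.

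The receptor of type I interferon, which shares JAK1 with the interferon-gamma receptor, varied little. Its chain Ifnar1 measured 16.7, 15.9, 17.2 and 14.7 TPM and Ifnar2 10.1, 10.7, 11.9 and 10.8 TPM, so the chains did not overlap. Their partners Tyk2, Stat2 and Irf9 measured 2.76 ± 0.163, 2.76 ± 0.291 and 1.93 ± 0.249 TPM, and Tyk2 overlapped Stat2. The list sum ranged from 32.6 to 37.1 TPM, or 1.14-fold.

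Most of the listed interferon-stimulated genes were low in Ctr. Of 14 interferon-stimulated genes, 3 had a mean of 1 TPM or more: Ifit2 at 4.08 ± 0.803, Mx2 at 2.67 ± 1.48 and Gbp3 at 1.23 ± 0.706 TPM. The ubiquitin-like modifier Isg15 had 5, 5, 4 and 3 counts and the chemokine Cxcl10 7, 8, 7 and 4. Antigen presentation genes of class I were present, and 7 of the 10 listed had a mean of 1 TPM or more. B2m, the light chain of class I, measured 22.5, 22.9, 21.98 and 19.4 TPM, Psmb10, an immunoproteasome subunit, 16.0 ± 3.25 TPM, and the heavy chain H2-K1 24.1, 17.0, 8.84 and 12.3 TPM. Class I heavy chain genes resemble each other, so reads may be shared among them. Class II genes were lower, with H2-DMa at 2.79 ± 0.655, H2-Ab1 at 0.658 ± 0.195 and H2-Eb1 at 0.364 ± 0.148 TPM. The class II transactivator Ciita stood at 0.217 ± 0.0363 TPM.

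For dexamethasone, the glucocorticoid receptor far exceeded the mineralocorticoid receptor. Nr3c1 measured 10.2, 12.6, 12.04 and 12.3 TPM (rank 4722), and Nr3c2 0.355, 0.372, 0.181 and 0.238 TPM, without overlap. The 11-beta-hydroxysteroid dehydrogenases, which convert endogenous glucocorticoids into or out of their active form, were near the floor, with 1, 4, 10 and 0 counts for Hsd11b1 and 6, 10, 7 and 5 for Hsd11b2. Chaperones were abundant. Hsp90ab1 measured 426, 424, 420 and 411 TPM, a spread of 1.60% of its mean, and Hsp90aa1 167 ± 19.7 TPM. Computed over protein-coding genes alone, Hsp90ab1 stood at 1479 ± 66.8 TPM, a wider spread. The co-chaperones Fkbp4, Stip1 and Ptges3 followed at 85.2 ± 7.27, 68.6 ± 2.46 and 52.2 ± 6.25 TPM, and their values overlapped neither each other nor those of the HSP90 genes. Fkbp5, which lowers the affinity of the receptor and is itself induced by it, stood at 9.98 ± 1.59 TPM. The coactivators Ncoa1 and Ncoa2 had means of 11.3 ± 2.16 and 10.5 ± 2.16 TPM, and both overlapped Nr3c1.

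Most of the listed glucocorticoid target genes had a measurable level in Ctr, where no dexamethasone was added. Of 8 genes, 6 were at 1 TPM or more in every library. Fam107a and Hif3a were far lower, with 8, 12, 8 and 4 counts and 17, 10, 0 and 3 counts in Ctr 1 to Ctr 4. Sgk1, a serum and glucocorticoid-induced kinase, measured 7.13, 20.8, 39.1 and 37.9 TPM, with Ctr 1 and Ctr 2 below Ctr 3 and Ctr 4. Ddit4, an inhibitor of mTORC1, measured 21.9 ± 3.58 TPM, and Tsc22d3, encoding GILZ, 7.47 ± 0.966 TPM.

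Pdgfra was the highest of the growth factor receptors. Pdgfra exceeded every FGF receptor in every library without overlap. Fgfr1 measured 34.1, 27.4, 14.2 and 16.1 TPM and Fgfr3 29.4, 17.8, 6.97 and 13.3 TPM, with Fgfr1 above Fgfr3 in 4 of 4 libraries although their ranges overlapped. Fgfr2 stood at 3.63 ± 1.28 TPM, and Fgfr4 had 0, 8, 2 and 2 counts. Insr, the insulin receptor, and Igf1r, the IGF-1 receptor, measured 8.73 ± 0.903 and 4.95 ± 0.880 TPM and did not overlap each other. Insr overlapped Fgfr3, and Igf1r overlapped Fgfr2. Unlike Pdgfra, both Fgfr1 and Fgfr3 were highest in Ctr 1.

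Feedback genes of FGF and ERK signalling had the order of the FGF receptors. Dusp6, an ERK phosphatase, measured 72.01, 62.9, 35.5 and 37.2 TPM, Spry2 52.9, 45.3, 22.4 and 23.0 TPM, Spry1 29.3, 28.9, 14.4 and 17.7 TPM, and the ETS factor Etv4 32.7, 30.1, 17.8 and 17.8 TPM. In these genes both Ctr 1 and Ctr 2 were above Ctr 3 and Ctr 4. That order was seen in 30.9% of all 12277 genes with a mean of at least 1 TPM, and its reverse in 25.3%. Etv5 and Spry4 varied less, at 48.6 ± 7.56 and 14.3 ± 2.24 TPM.

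**Figure D4:**
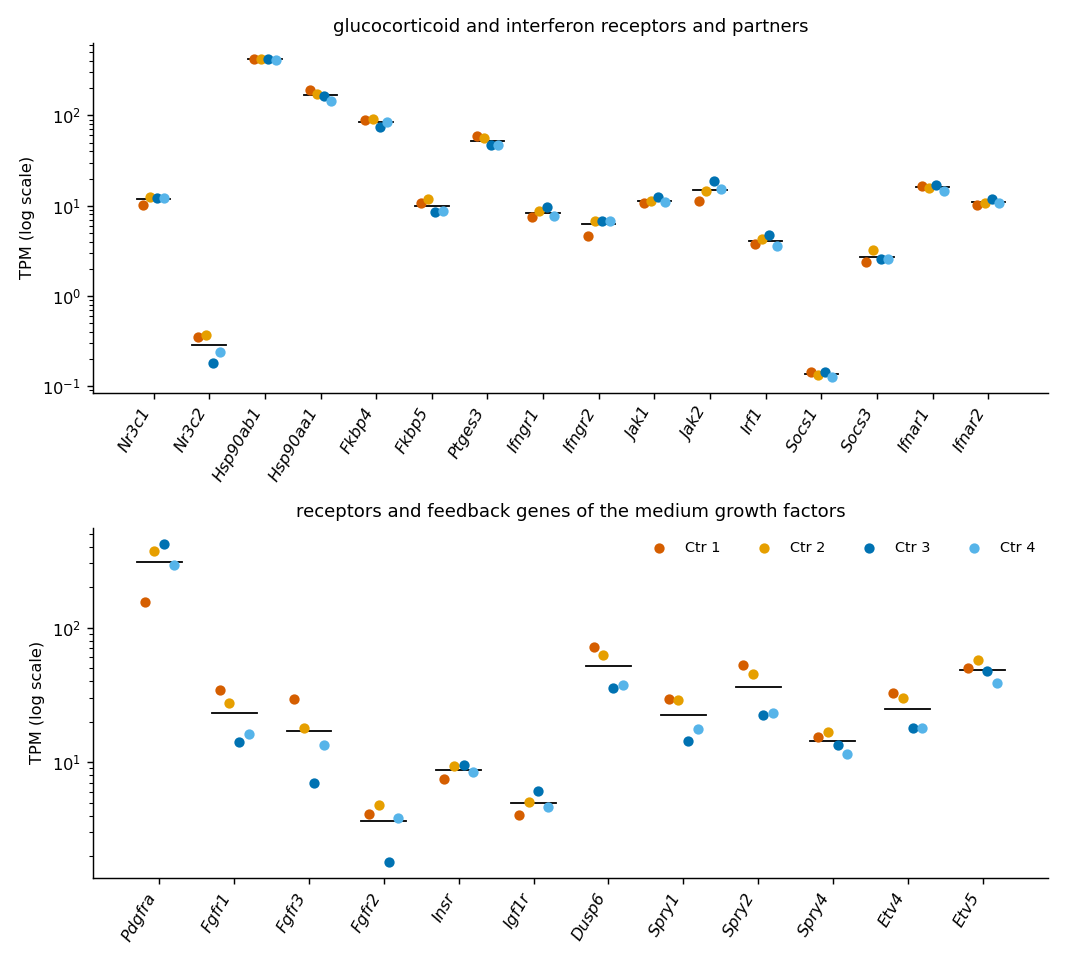
TPM on a logarithmic axis in each Ctr library (coloured points) for glucocorticoid and interferon receptors with their partners (top) and receptors and feedback genes of the medium growth factors (bottom), with the mean as a bar. The 4 points of Hsp90ab1 lie between 411 and 426 TPM, while those of Fgfr3 spread from 6.97 to 29.4 TPM.

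Replicates of untreated cells differed by more than counting error. Over 12277 genes with a mean of at least 1 TPM, the median SD of log2(TPM + 0.1) was 0.23 (quartiles 0.15 and 0.38). The median coefficient of variation of scaled counts was 14.0%, while counting alone would give 2.74%. Genes between 1 and 3 TPM had a median SD of 0.33 on the log2 scale and genes between 10 and 100 TPM 0.20. Genes of 100 TPM or more were not tighter, with 0.21 and an upper quartile of 0.40. The edgeR common biological coefficient of variation was 26.1% over the 4 Ctr libraries. It was 20.5% without Ctr 1 and 25.6% to 29.9% without any other library.

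The pairs of replicates were not alike. Ctr 3 and Ctr 4 differed by more than 2-fold in 192 genes, or 1.56%, with a median absolute log2 difference of 0.17. Ctr 1 and Ctr 3 differed that much in 1712 genes, or 13.9%, with a median of 0.40, and Ctr 1 and Ctr 4 in 1464 genes. Pairs with Ctr 2 fell between, at 596, 634 and 662 genes. Ctr 2 held the lowest value for 3.53% of genes, the smallest share of the 4. Ctr 3 and Ctr 4 share the prefix 190315 in their sample titles, while Ctr 1 carries 190218 and Ctr 2 190318, and the labels do not say what the prefix stands for. The table of Ctr 1 also writes its values with another number of decimals than those of Ctr 2 to Ctr 4. No pair of libraries agreed within sampling noise.

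Replication-dependent histones were frequent among the most variable protein-coding genes. Among the genes with a mean of at least 5 TPM, 6 of the 8 with the largest SD of log2 TPM belong to this class: Hist2h2aa1, Hist1h2ak, Hist1h2an, Hist1h2ad, Hist1h2af and Hist1h2ae. Hist2h2aa1 measured 116, 64.5, 2.47 and 3.56 TPM in Ctr 1 to Ctr 4. The gene model Gm15446 and the Y-linked gene Eif2s3y varied more than any of these, and Gm15446 measured 0.0222, 2.63, 21.6 and 0.0381 TPM. The least variable genes by this measure were Canx, an endoplasmic reticulum chaperone, at 154 ± 1.02 TPM and Srpr at 12.97 ± 0.0908 TPM. Rhoa at 61.7 ± 0.473, Prmt5 at 32.3 ± 0.317 and Mrpl40 at 18.6 ± 0.184 TPM followed. This ranking depends on the scale. Computed over protein-coding genes alone, Canx stood at 540 ± 27.4 TPM, while Ywhaz was tighter relative to its mean at 337 ± 9.20 TPM. Srpr was also called in the prefix test described below (adjusted p = 0.0396, edgeR).

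Histone clusters were then summed, a step chosen after their values had been seen. The 67 Hist cluster genes annotated as protein-coding held 4.52%, 2.95%, 0.729% and 0.824% of protein-coding TPM in Ctr 1 to Ctr 4. Of the 63 with a mean of at least 1 TPM, 62 were higher in both Ctr 1 and Ctr 2 than in both Ctr 3 and Ctr 4, the order that 30.9% of all genes had. Treated libraries of the same replicate numbers gave 4.22% and 3.36% for replicate 1, 2.22% and 2.48% for replicate 2, 1.69% for IFNg 3, and 0.659% and 1.21% for replicate 4. Histone genes of a cluster are near-identical, so values of single members are uncertain and the sum is the safer measure.

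Whether replicates differed beyond the spread left after condition was then tested. The fit used the 11 libraries with a whole table, since 4 Ctr libraries leave 1 residual degree of freedom, with title prefix as the tested factor and condition as covariate. By edgeR's quasi-likelihood test, 8722 of 17919 genes (48.7%) differed between prefixes at an adjusted p under 0.05. Among these, 4337 (24.2% of genes tested) were higher and 4385 (24.5%) lower in the prefix of replicate 1 than in that of replicates 3 and 4, and 2489 differed by at least 1 on the log2 scale. Prefixes 190218 and 190318 each hold 1 replicate number, so prefix and litter cannot be told apart, and the p-values rest on libraries that share a litter. With the Ctr libraries alone the count was 3080 of 16006, and with the treated libraries alone 4455 of 16930 genes tested.

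OPC genes were lower and cell cycle genes higher in the prefix of replicate 1. Of 12 OPC genes 11 were called, against 48.7% of all genes, and all 11 were lower in replicate 1 than in replicates 3 and 4, with a list median of -1.53 on the log2 scale against 0.00 over all genes tested. Cspg5 was the gene not called (adjusted p = 0.154). Pdgfra differed by -1.48 (adjusted p = 0.000164, edgeR), Sox10 by -1.87 (adjusted p = 7.15e-07), Cspg4 by -0.96 and Olig2 by -0.49 (adjusted p = 0.00042 for both). Of the 8 lineage factors 6 were called, all lower, and Olig1 was not (adjusted p = 0.171).

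The lists here too are to be read against the 48.7% of all genes called, 24.2% higher and 24.5% lower in replicate 1. Committed precursor genes were called in 12 of 12, with 10 lower and 2 higher in replicate 1. Gpr17 differed by -3.73 (adjusted p = 9.2e-07) and Neu4, a sialidase, by -4.03 (adjusted p = 5.47e-07). Replicate 2 was intermediate, with Gpr17 at -1.46 and a list median of -1.14 against -2.43 for replicate 1. Myelin genes were called in 8 of 9 tested and split, with 6 lower and 2 higher in replicate 1, and the 2 higher genes, Aspa and Mobp, rested on at most 79 counts in any Ctr library. Cell cycle genes were called in 12 of 12, all higher in replicate 1, with a median of 1.25, and Mcm5 differed by 1.45 (adjusted p = 0.000141, edgeR). With the treated libraries alone 8 of these 12 were called. Of the 63 histone genes tested, 62 were called and all were higher in replicate 1.

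Of all genes 48.7% were called, 24.2% higher and 24.5% lower in replicate 1, and the lists below are to be read against these shares. Astroglial genes were called in 7 of 7 tested, all higher in replicate 1, with Aldh1l1 at 1.67 (adjusted p = 4.05e-05). Without Ctr 1 only 2 remained past the threshold, without Dexa 4 there were 3 and without IFNg 3 there were 4. Of 12 growth factor receptor and feedback genes tested, 10 were called, 8 of them higher in replicate 1, among them Dusp6 at 1.18 (adjusted p = 5.4e-06) and Fgfr1 at 1.00 (adjusted p = 5.15e-06). Pdgfra and Insr were the 2 called lower. Housekeeping genes were called in 7 of 8, all higher in replicate 1, with a median of 0.43 and Gapdh at 0.63. Neuronal genes were called in 6 of 8, 5 of them lower in replicate 1, and Dcx differed by -2.03 (adjusted p = 1.43e-06). Without Ctr 1 or without Ctr 4 only 3 of the neuronal genes passed. Of 9 immediate early and stress genes 6 were called, all higher, with Atf3 at 1.66, Junb at 1.57, Ier2 at 1.31 and Fos at 0.58 among them, while the most abundant member, Jun, was not (adjusted p = 0.126).

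Of the treatment receptors, Ifngr2 was called and Nr3c1, Nr3c2 and Ifngr1 were not. Nr3c1 differed between prefixes by at most 0.04 on the log2 scale (adjusted p = 0.873) and Ifngr1 by at most 0.05 (adjusted p = 0.856). Of the 9 genes of interferon-gamma reception 2 were called, Ifngr2 at -0.48 (adjusted p = 0.000942) and Jak2 at -0.42 (adjusted p = 0.00132), both lower in replicate 1. The share over all genes was 48.7%. Without IFNg 3 there were 4 calls. Jak1 was not called (adjusted p = 0.199). Of 10 tested genes around the glucocorticoid receptor 7 were called, with Fkbp5 the largest at 0.52 (adjusted p = 7.44e-05). Type I receptor genes were called in 3 of 5, Ifnar1 at 0.20, Ifnar2 at -0.25 and Stat2 at -0.22, and no call was left without IFNg 1. Class I genes were called in 3 of 10, and in 1 without Ctr 4, and class II genes in 1 of 7, and in 0 without IFNg 3. The class II call was H2-DMb1, which had only 1, 2, 3 and 1 counts in Ctr 1 to Ctr 4 and passed the count minimum through treated libraries. Of 14 interferon-stimulated genes 6 were called, and 4 without any single IFNg library, and of 8 glucocorticoid target genes 5, with Sgk1 at -1.87 (adjusted p = 1.22e-05). Without Dexa 2 only 2 target genes passed. Genes raised by a treatment could enter the test through treated libraries, so calls in these lists need not describe untreated cells. With Ctr libraries alone, 7 interferon-stimulated genes were tested and 2 called.

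Lists with low levels had few genes to test. Against 48.7% over all genes, microglial genes gave 0 of 3 tested by edgeR, 0 at an unadjusted p under 0.05 and 0 by DESeq2, and 1 without IFNg 1. Endothelial genes gave 1 of 4, which was lost without any 1 of 7 libraries, Ctr 1 and Ctr 2 among them. Mural genes gave 1 of 5 (4 at an unadjusted p under 0.05), and 3 without Ctr 3 or IFNg 4, Schwann cell genes 2 of 5 and ependymal genes 1 of 1. Fibroblast genes gave 4 of 7, all lower in replicate 1, with Col3a1 at -5.04 (adjusted p = 0.00993), with 2 called without Ctr 1, 7 without Ctr 4, and 7 at an unadjusted p under 0.05.

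Among genes with a mean of at least 5 TPM in Ctr, the largest differences were as follows. Highest in the prefix of replicate 1 were Lars2, a mitochondrial leucyl-tRNA synthetase, at 4.64 over replicates 3 and 4 (adjusted p = 0.00234), and the histones Hist1h2an, Hist2h2aa1, Hist1h2ae and Hist1h2ak. Lars2 measured 167 TPM in Ctr 1 and 22.1, 13.7 and 5.91 TPM in the other libraries. Highest in that of replicate 2 were Gm10801, Matn4, Hist1h4m, Spp1 (osteopontin) and Mbp. For Mbp the difference between replicates 1 and 2 was -2.29 (adjusted p = 0.000354, edgeR). Matn4 in replicate 2 was level with replicates 3 and 4, at a log2 difference of 0.00028, and its replicate 1 lay at -3.33 from them. The difference of Spp1 between replicates 1 and 2 was -2.68, and its call was lost at -2.47 without Ctr 1 (adjusted p = 0.0524) and at -2.39 without Dexa 1 (adjusted p = 0.0539). Highest in the shared prefix of replicates 3 and 4 were Neu4, S100a6, Gpr17, Col9a1 and S100a4. S100a6, a calcium-binding protein, measured 1.02, 10.9, 20.9 and 20.8 TPM in Ctr 1 to Ctr 4.

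**Figure D5:**
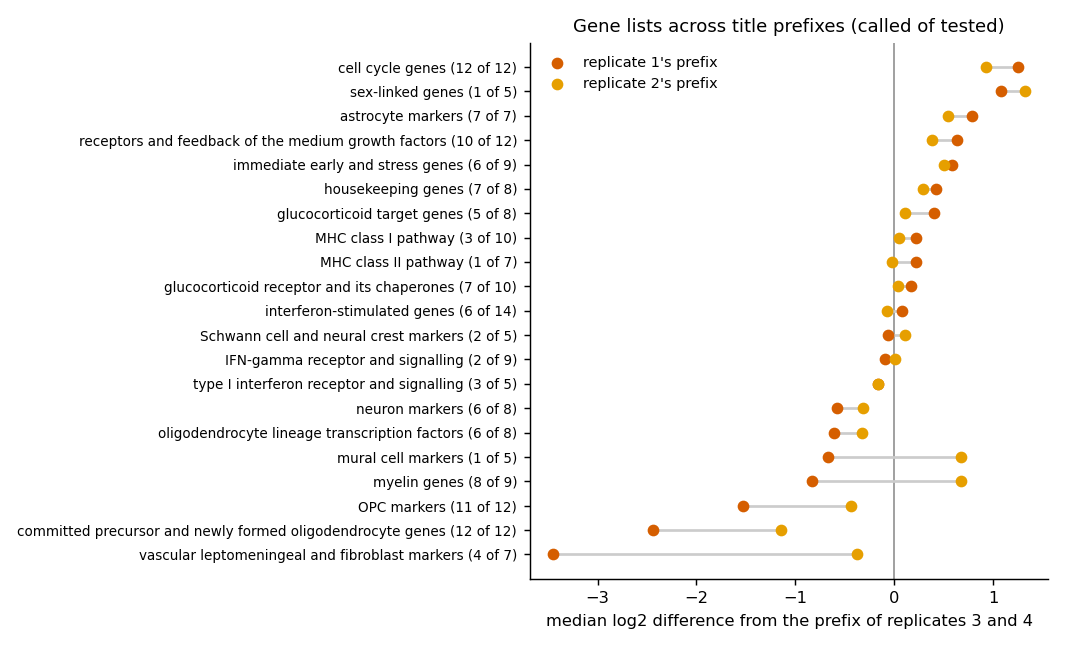
Median log2 difference of each gene list with at least 5 genes tested, for the prefix of replicate 1 and that of replicate 2 against the prefix of replicates 3 and 4, from the fit over 11 libraries, with the genes called of those tested in brackets. Cell cycle genes lie at 1.25 and 0.93, and committed precursor genes at -2.43 and -1.14.

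Sex-linked genes separated Ctr 3 from the rest. The Y-linked genes Eif2s3y, Kdm5d, Ddx3y and Uty summed to 3060, 5104, 10 and 1971 counts in Ctr 1 to Ctr 4. Xist, the RNA that silences an X chromosome in female cells, measured 8.26, 9.59, 31.5 and 17.7 TPM. IFNg 3 had 5 Y-linked counts, while all other whole tables had between 1291 and 5104. Xist was thus present in all libraries, and Y-linked reads were near absent in those of replicate 3 that were used.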

How the data were processed

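Total RNA libraries, depleted of rRNA and stranded, were sequenced as paired reads. The deposited tables hold estimated counts and TPM per transcript, made by the authors with Salmon 0.8.2, as the submitters' processing notes list. Their transcript identifiers match GENCODE vM21 (GRCm38). Both were summed per gene, and effective lengths (another column of the deposited tables) served only the alternative scaling. The table of Dexa 3 lists 47855 of 141862 transcripts and was not used. The authors' tables of treatment comparisons (log2 fold changes and p-values) were not used. The check for repeated libraries set counts of each pair against sampling noise.

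Members and gene lists were chosen with earlier results of these data known. The 24 lists hold 226 entries, all found, 1 by an older symbol through RefSeq. Named genes were the 4 markers, all receptor list genes, the 15 protein-coding and 5 other genes with the highest mean TPM, the 3 highest of each other list and those at 0, the 8 most and 5 least variable genes at 5 TPM or more, and the 5 largest prefix differences for each highest prefix. A few genes under this rule and a sequence are not reported here. Other genes were added from the lists after their values were seen. Prefixes were compared with edgeR 4.0.16 (quasi-likelihood, TMM, rounded estimated counts, a minimum of 10 counts in 4 or more libraries, Benjamini-Hochberg) after a test on simulated data. Alternatives used DESeq2 1.42.0, other scalings, filters and left-out libraries. Replicate numbers were taken to pair the samples, since by the study's methods replicates came from different litters. Deviations from the group mean correlated between libraries of the same number with r between 0.50 and 0.87 over 10 pairs. Over 30 pairs of different numbers r was -0.80 to 0.69. Centring within groups pushes such pairs toward negative values. Pairs of different numbers that share a prefix had r between 0.39 and 0.69, so these values do not separate replicate number from prefix.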

Additional observations from a re-analysis of the deposited data

Results flagged for a closer look

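Of 163 values tested for a library far from the other 3 in Ctr, 8 stood out, close to the 8.15 that chance gives at 1 in 20. Lars2 was at 167 TPM in Ctr 1 against 5.91 to 22.1 TPM elsewhere. Gm15446 was at 21.6 TPM in Ctr 3 against 0.0222 to 2.63 TPM. Ifngr2 was at 4.61 TPM in Ctr 1 against 6.73 to 6.79 TPM. Rn7s1 was at 373200 TPM in Ctr 2 against 396840 to 401710 TPM, and its split from Rn7s2 is arbitrary. Rhoa was at 62.4 TPM in Ctr 2 against 61.4 to 61.6 TPM. Of low genes, Tagln was at 0.961 TPM in Ctr 4 against 0.556 to 0.599 TPM, Kdr at 0.294 TPM in Ctr 4 against 0.187 to 0.1997 TPM, and Hsd11b2 at 0.0752 TPM in Ctr 2 against 0.0566 to 0.0590 TPM.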

How the results depend on the processing

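The number of genes at 1 TPM in all Ctr libraries stayed between 11422 and 15981 under other scalings, a threshold of 0.5 TPM and a minimum of 10 counts, and between 11442 and 11764 with a library left out. The median spread fell to 0.20 with log2(TPM + 1) and to 0.0556 without a minimum level, and ranged from 0.18 to 0.25 with a library left out, lowest without Ctr 1. The number of genes that differed between prefixes was 8653 with DESeq2's likelihood ratio test, 8739 with RLE size factors, 8924 without a filter, and 6920 to 8617 with a library left out. It dropped to 3080 with Ctr libraries alone and 4455 with treated libraries alone, which hold fewer samples. With the replicate number as the tested replicate block in place of the prefix, 8277 genes were called, and Y-linked genes joined the calls of the sex-linked list, which rose from 1 to 5 of 5. Rescaling TPM over protein-coding genes moved all 166 levels by construction. With treated libraries alone Hist1h4m and Spp1 lost their calls (adjusted p = 0.104 and 0.0645, edgeR) at differences of 2.52 and -2.61, against 3.07 and -2.68. Depth limits the statements on genes with under 10 counts per library, among them most microglial and late myelin genes. For replicates 1 and 2, litter and prefix cannot be told apart, and the isolation of each library is not given.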
